A study of Mus musculus with 8 samples.

Results

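The choroid plexus epithelium is the sheet of cells that secretes cerebrospinal fluid, and 32 genes known from it were followed in hippocampal RNA of mice given hydroxyurea and of untreated mice. The list is one of gene names and sets no threshold on the signal, but it was drawn up with earlier results of these data known. All 32 were among the 21368 genes named on the arrays, and 32 of 32 passed the filter on dim probes that left 16620 genes for testing. RNA was measured on 1-colour Agilent arrays with 1 array per mouse. The 4 Hydroxyurea mice drank the drug at 45 mg/kg/day for 10 weeks, and Hydroxyurea 1 and 2 were 24 weeks old at the end while Hydroxyurea 3 and 4 were 19 weeks old. The 4 Control mice were untreated and 19 weeks old. All 8 mice were females without the transgenes, littermates of APPswe695/PSEN1dE9 mice on a C57BL/6J background. Hydroxyurea inhibits ribonucleotide reductase, the enzyme that supplies deoxynucleotides for DNA synthesis.

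Choroid plexus epithelium hangs into the brain ventricles, and the plexus of the lateral ventricle lies along the edge of the hippocampus. Its cells take up water and ions from leaky capillaries and move them into the ventricle through channels and bicarbonate transporters on the apical face. Carbonic anhydrases, which are enzymes, assist this movement. They close the path between cells with claudins, and they release carrier proteins such as transthyretin into the fluid. Several of these genes are also known from other brain cells, so a gene on the list need not come from the epithelium alone.

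Each array was scaled by its own 75th percentile, which was taken off the log2 processed signal to give the scaled log2 signal used throughout. That percentile was 1052 to 2162 on the Hydroxyurea arrays and 1677 to 2417 on the Control arrays, and each Hydroxyurea array detected 59.7% to 69.0% of probes well above background, each Control array 62.1% to 76.7%. No spot was saturated. The array of Control 1 had noisier replicate spots, with a median coefficient of variation of 10.7% against 3.18% to 3.53% on the other 7 arrays. Hydroxyurea 2 was the dimmest array. Hydroxyurea arrays took row 2 and Control arrays row 1 of 1 slide, and the effect of the row and that of the drug cannot be told apart. The 8 neuronal marker genes of hippocampus (Prox1, Dsp, C1ql2, Wfs1, Fibcd1, Mpped1, Spink8 and Neurod6) were well above background on all 8 arrays, as were the 7 defining genes of choroid plexus epithelium (Ttr, Folr1, Kl, Clic6, Kcnj13, Otx2 and Aqp1). In a piece of tissue, fewer cells of a type and less RNA per cell cannot be told apart.

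The choroid plexus genes varied between mice far more than most genes did, and they varied together. Their SD over the 8 mice had a median of 1.31 on the log2 scale, against 0.161 over all genes. An SD of at least 1 was found for 25 of 32 members, where 1.22% of all genes reached it. Of the 50 genes with the largest SD on the arrays, 12 were members. Hydroxyurea 4 was the highest mouse for 32 of 32 members, where 14.0% of all genes were highest in that mouse. Control 1 was the lowest mouse for 30 of 32, where 21.0% of all genes were lowest there, and 5.13% of all genes met both conditions. The exceptions were Cldn1, lowest in Control 4, and Enpp2, lowest in Control 2. Control 1, the lowest mouse, was also the array with the noisiest spots, and the part of that noise in the pattern was not tested.

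The mean over the 32 members of each gene's deviation from its own 8-mouse mean gave a score per mouse. The score was -0.92, 0.68, 0.09 and 2.44 in Hydroxyurea 1 to 4, against -1.75, -0.88, 0.71 and -0.36 in Control 1 to 4. The groups overlapped, with Hydroxyurea 1 below 3 of the Control mice and Control 3 above 3 of the Hydroxyurea mice. The 24-week mice, Hydroxyurea 1 and 2, stood on opposite sides of 0. Without Hydroxyurea 4 and Control 1 the pattern was smaller: the median SD of the members over 6 mice was 0.74, against 0.138 over all genes, and 11 of 32 members had an SD of at least 1 (0.802% of all genes).

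**Figure D1:**
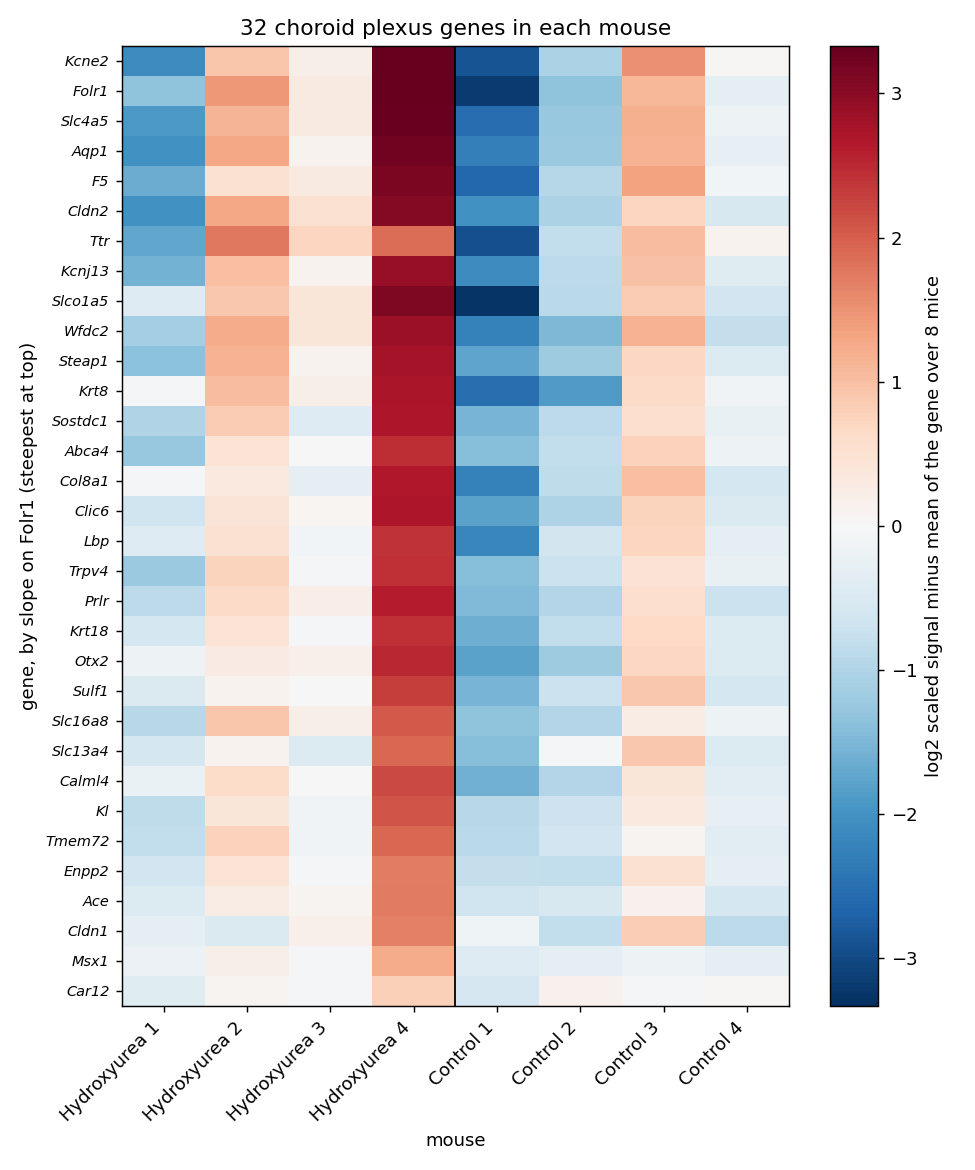
Scaled log2 signal of each of the 32 genes minus that gene's mean over 8 mice, as colour, with the genes in rows from the steepest slope on Folr1 at the top (Folr1 itself placed at 1) and the mice in columns, Hydroxyurea left and Control right of the black line. Hydroxyurea 4 is the reddest column for every gene, Control 1 is the bluest for most, and the bottom rows (Msx1 and Car12) are nearly without colour in the other mice.

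Among 496 pairs of members, Pearson's r over the 8 mice had a median of 0.942 and a range of 0.462 to 0.999, and 359 pairs reached 0.9. All pairs share the same 8 arrays, and most of the spread lies between Hydroxyurea 4 and Control 1. Over the other 6 mice the median was 0.864, the lowest value was -0.24 and 200 pairs reached 0.9. The member least like the rest was Cldn1, with a median r of 0.731 with the other 31 members, followed by Car12 (0.847), Ttr (0.852) and Msx1 (0.869). The member most like the rest was Kcnj13, at 0.969.

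Folr1 and Ttr served as measures of choroid plexus content, each in turn. Folr1, the folate receptor that carries folate across the epithelium into the fluid, had scaled log2 signals of -1.09, 1.68, 0.56 and 3.56 in Hydroxyurea 1 to 4, against -2.95, -1.08, 1.34 and -0.04 in Control 1 to 4. Its highest mouse was 91.0-fold above its lowest, and the groups overlapped. Ttr, transthyretin, which carries thyroxine and the retinol-binding protein, had 3.76, 7.23, 6.19 and 7.34 in Hydroxyurea 1 to 4, against 2.56, 4.66, 6.51 and 5.60 in Control 1 to 4. Ttr also overlapped between the groups, and its highest mouse was 27.4-fold above its lowest. Ttr and Folr1 put the 8 mice in the same order (Spearman's rho = 1.0 and Pearson's r = 0.95 over 8 mice, exact permutation p = 4.96e-05 and 7.44e-05). The adjusted exact permutation p of that r was 0.0514 among 16585 genes set against Folr1, and r was 0.963 without the mice farthest from the median of Folr1.

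The 2 genes parted at the top of the range. Hydroxyurea 4 exceeded Hydroxyurea 2 by 0.11 in Ttr, while the same difference had a median of 1.88 and a range of 0.71 to 2.64 in the other 31 members, so 31 of 31 lay above Ttr. Hydroxyurea 4 exceeded Control 1 by 4.77 in Ttr and by a median of 4.24 in the other members, 11 of 31 above Ttr. Hydroxyurea 2 exceeded Control 3 by 0.72 in Ttr, while the other members had a median of 0.08 and at most 0.68, so 0 of 31 lay above Ttr. Ttr was thus high in Hydroxyurea 2 beside Control 3, and these steps alone do not separate that from a low Ttr in Hydroxyurea 4. Hydroxyurea 3 gives another comparison, at 6.19 in Ttr and 0.56 in Folr1. From there to Hydroxyurea 2, at 7.23 and 1.68, the 2 genes rose by similar amounts. To Hydroxyurea 4, at 7.34 and 3.56, Ttr rose much less than Folr1, so Ttr was low in Hydroxyurea 4 beside Folr1. The unscaled Ttr signal was 349960 on the Hydroxyurea 4 array, and the highest signal of any probe there was 471780. Ttr was not flagged as saturated on any array. Whether its signal still rose in proportion to RNA at that level was not tested.

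With Ttr as the measure of content, no gene passed a limma fit of each gene on Ttr that also held a group term (Benjamini-Hochberg adjusted p under 0.05). The called share was 0% of 16619 genes and 0 of 31 members, with a lowest adjusted p of 0.377. All 31 members had a slope above 0 all the same, with a median of 0.62 in log2 per log2, against 0.0010 over all genes. At an unadjusted p under 0.05, 29 of 31 members were positive, where 5.26% of all genes were (and 4.66% negative). The slopes ran from 0.16 for Msx1 to 1.14 for Kcne2. In an added term that let the slope differ between treated and untreated mice, 0 of 31 members and 0% of all genes passed. At an unadjusted p under 0.05 that difference was positive for 4.77% and negative for 8.01% of all genes, and 0 of 31 members were among them. The largest such difference was that of Cldn2, 0.55 higher in Hydroxyurea mice (limma adjusted p = 0.414).

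With Folr1 in its place, an alternative to Ttr, 50 of 16619 genes passed (0.301%), 49 with a positive slope (0.295%) and 1 with a negative slope (0.00602%). Of the 31 members, 25 passed, all with positive slopes, and all 31 slopes were above 0 with a median of 0.63. So the members were 25 of the 49 genes. A slope of 1 means that a gene changed in proportion to Folr1 between mice of the same group. The count rested on few mice: it was 12 of 31 without Hydroxyurea 4, 8 of 31 without Control 3 and 9 of 31 without Hydroxyurea 4 and Control 1 together. With Hydroxyurea 3 left out 30 genes passed, and with Control 2 left out 32. The direction held for 31 of 31 in each of these fits. In 19-week mice alone 16 of 31 members passed, and 13 of 31 with age as a covariate. With the replicate number as a block 0 of 31 passed. With all mice pooled and no group term, 28 of 31 passed, against 0.481% of all genes. Normexp, a background correction that models the background of each array, left 20 of 31, without Otx2 (limma adjusted p = 0.0623), Kl (0.0783), Slco1a5, Abca4 and Krt8. Averaging the probes of a gene left 19 of 31, without Prlr (adjusted p = 0.104), Cldn2 (0.228), Kl, Enpp2, Slc13a4 and Sulf1. The calls of Kl and Slc13a4 were also lost with quantile scaling, in the deposited z scores and under both other filters on dim probes, that of Enpp2 with quantile scaling and those of Otx2 and Sulf1 in the z scores.

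**Figure D2:**
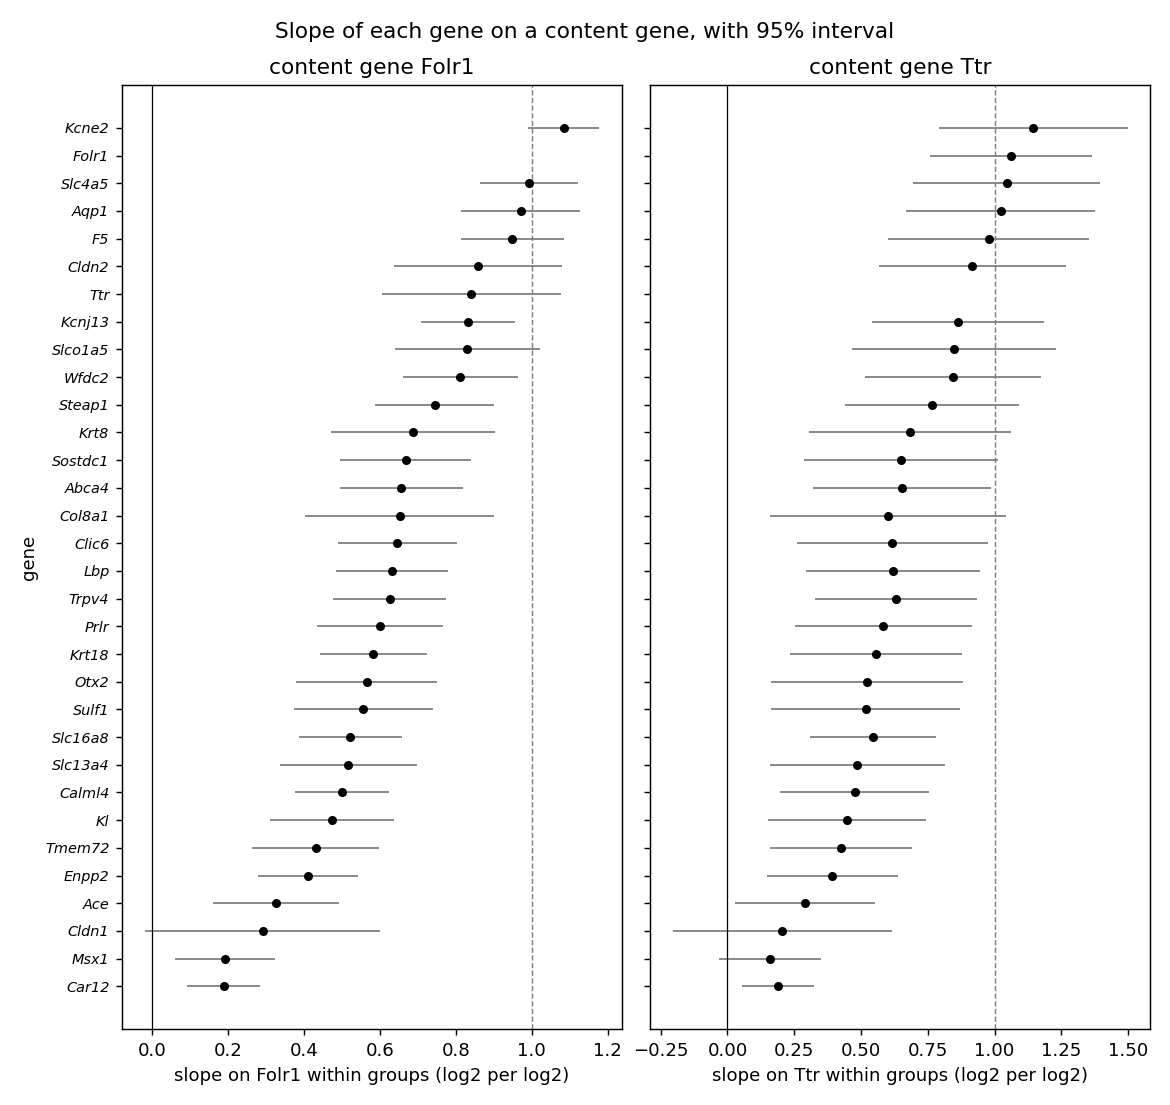
Slope of each gene within groups, in log2 per log2, on Folr1 (left) and on Ttr (right), with the 95% interval of the limma fit over 8 mice. The dashed line marks a slope of 1, the proportional change; Kcne2, Slc4a5, Aqp1 and F5 lie near it in both panels, and Car12 and Msx1 lie closest to 0.

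The genes of ion and water movement gave the steepest slopes and also the flattest. Kcne2, a small subunit of potassium channels, had -2.75, 0.26, -0.47 and 2.67 in Hydroxyurea 1 to 4, against -3.53, -1.71, 0.87 and -0.63 in Control 1 to 4. Its slope on Folr1 was 1.08 ± 0.04 (SE, 8 mice; limma adjusted p = 3.93e-05), and it was 1.04 to 1.12 with any 1 mouse left out. Slc4a5, a sodium bicarbonate cotransporter of the apical membrane, had a slope of 0.99 ± 0.06 (adjusted p = 0.000287). Aqp1, the water channel of that membrane, had -3.21, 0.12, -1.05 and 2.03 in Hydroxyurea 1 to 4, against -3.46, -2.41, -0.02 and -1.45 in Control 1 to 4. Its slope was 0.97 ± 0.07 (adjusted p = 0.000826). For all 3 genes Hydroxyurea 4 was highest, Control 1 lowest and the groups overlapped.

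Kcnj13, the inward rectifier channel Kir7.1, had a slope of 0.83 ± 0.05 (limma adjusted p = 0.000495), and its 2 probes gave slopes of 0.79 and 0.72 when the mice were pooled. Clic6, of the chloride intracellular channel family, had a slope of 0.65 ± 0.07 (adjusted p = 0.0095). The flattest slope of all 31 members was that of Car12. Car12, a carbonic anhydrase anchored in the cell membrane, had 2.53, 3.03, 2.89 and 3.73 in Hydroxyurea 1 to 4, against 2.39, 3.08, 2.90 and 2.97 in Control 1 to 4. Apart from Hydroxyurea 4, the mice lay between 2.39 and 3.08, with the groups mixed. Its slope was 0.19 ± 0.04 and did not pass (adjusted p = 0.195), and r with Folr1 was 0.850 over 8 mice and 0.356 without the 2 mice farthest from the Folr1 median. The 95% interval of the slope ran from 0.09 to 0.28 for Car12 and from 0.81 to 1.13 for Aqp1.

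**Figure D3:**
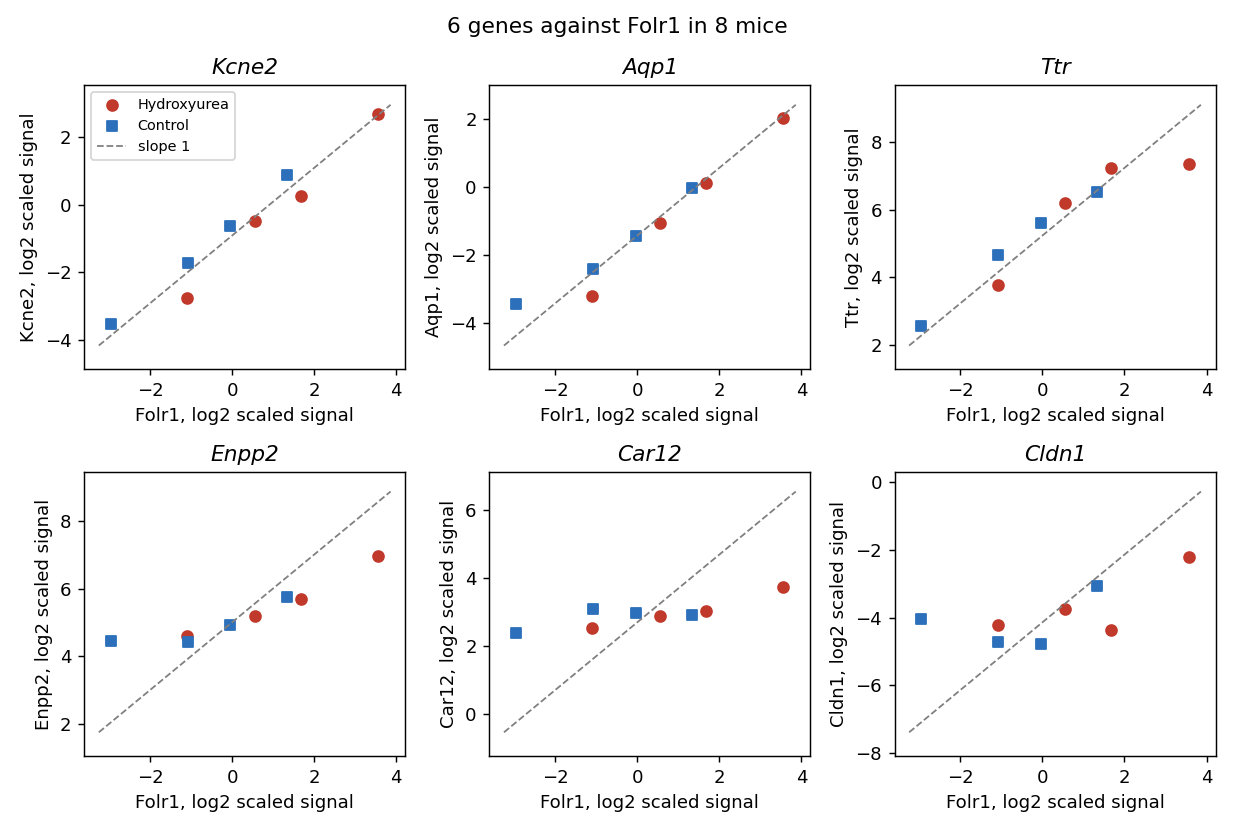
Scaled log2 signal of 6 genes against that of Folr1, 1 point per mouse (red circles Hydroxyurea, blue squares Control), with a dashed line of slope 1 through the mean of each plot. Kcne2 and Aqp1 follow the line, Ttr falls below it in the mouse of highest Folr1, and Enpp2, Car12 and Cldn1 run flatter.

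The 6 genes of secreted proteins had slopes on Folr1 of 0.41 to 0.95, and 6 of 6 passed, where 0.301% of all genes did. On Ttr 0 of 31 members passed. Since the members vary together, the counts by role given here and below are not separate results about each role. F5, coagulation factor V, had -3.68, -1.54, -1.73 and 1.10 in Hydroxyurea 1 to 4, against -4.64, -2.98, -0.70 and -2.12 in Control 1 to 4, with a slope of 0.95 ± 0.06 (limma adjusted p = 0.000441). Ttr had 0.84 ± 0.10 (adjusted p = 0.0177) and lost the threshold without Hydroxyurea 1, Control 1 or Control 3. Wfdc2, a secreted protein with whey acidic protein domains, had 0.81 ± 0.07. Sostdc1, an antagonist of BMP and Wnt ligands, had 0.67 ± 0.08, and Lbp, which binds bacterial lipopolysaccharide, had 0.63 ± 0.06.

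Enpp2 was the flattest of the secreted group. Enpp2, autotaxin, which makes lysophosphatidic acid and is also known from oligodendrocytes, had 4.61, 5.69, 5.20 and 6.95 in Hydroxyurea 1 to 4, against 4.45, 4.43, 5.75 and 4.92 in Control 1 to 4. The 3 lowest mice, Hydroxyurea 1, Control 1 and Control 2, lay together, although Control 1 had less Folr1 than the other 2. The slope was 0.41 ± 0.06 (limma adjusted p = 0.0335). The 12 oligodendrocyte marker genes had a median slope on Folr1 of -0.0028, 0 of 12 passed, and their summed scaled signal was 184 to 258 in Hydroxyurea and 201 to 255 in Control mice.

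Of the 2 transcription factors, Otx2 passed and Msx1 did not. Otx2, a homeodomain factor needed to form and maintain choroid plexus in mice, had -0.48, -0.04, -0.15 and 2.20 in Hydroxyurea 1 to 4, against -2.10, -1.49, 0.37 and -0.75 in Control 1 to 4. Hydroxyurea 4 stood far above the rest of its group. The slope of Otx2 was 0.56 ± 0.08 (limma adjusted p = 0.0357). Msx1, a homeodomain factor of dorsal midline tissue, had -0.97, -0.59, -0.85 and 0.46 in Hydroxyurea 1 to 4, against -1.22, -1.09, -0.97 and -1.08 in Control 1 to 4. The 4 Control mice lay close together, with an SD of 0.10, while their Folr1 signals had an SD of 1.81. The slope of Msx1 was 0.19 ± 0.06 (adjusted p = 0.291).

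The receptors and sensors other than Folr1 had slopes of 0.47 to 0.63, and 4 of 4 passed (0.301% of all genes). Prlr, the prolactin receptor, had -1.09, 0.43, 0.01 and 2.39 in Hydroxyurea 1 to 4, against -1.70, -1.19, 0.33 and -0.92 in Control 1 to 4, with a slope of 0.60 ± 0.07 (limma adjusted p = 0.0165). A second probe of Prlr was flatter, at 0.31 against 0.63 for the first when the mice were pooled. Trpv4, a cation channel that senses osmotic change, had 0.63 ± 0.07 (adjusted p = 0.0089). Calml4, a calmodulin-like protein, had 0.50 ± 0.05. Kl, klotho, a co-receptor for fibroblast growth factor 23 that is shed into the fluid, had 0.47 ± 0.07 (adjusted p = 0.0472).

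The solute transporters had slopes of 0.52 to 0.83, and 5 of 5 passed (0.301% of all genes). Slco1a5, an organic anion transporter, had -5.18, -3.85, -4.35 and -1.64 in Hydroxyurea 1 to 4, against -8.02, -5.64, -3.90 and -5.39 in Control 1 to 4. It was 83.0-fold higher in the highest mouse than in the lowest, but the lowest, Control 1, was not well above background. Its slope was 0.83 ± 0.08 (limma adjusted p = 0.00863), but 0.46 with normexp, where it did not pass (adjusted p = 0.0602). Steap1, a membrane protein of the STEAP family, had 0.74 ± 0.07, and Abca4, a transporter of retinoid lipids known from photoreceptors, had 0.66 ± 0.07. With normexp Abca4 had 0.39 and did not pass (adjusted p = 0.0736). Slc16a8, a lactate transporter also known from retinal pigment epithelium, had 0.52 ± 0.06. Slc13a4, a sulfate transporter, had 0.52 ± 0.08 (adjusted p = 0.0472), with r at 0.90 over 8 mice and 0.607 without the 2 mice farthest from the Folr1 median.

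Among junction and keratin genes 3 of 4 passed (0.301% of all genes), and Cldn1 did not. Cldn2, which forms a pore for cations and water between epithelial cells, had -5.30, -2.00, -2.78 and -0.24 in Hydroxyurea 1 to 4, against -5.31, -4.35, -2.58 and -3.83 in Control 1 to 4, with a slope of 0.86 ± 0.10 (limma adjusted p = 0.012). Cldn1, a sealing claudin, had -4.21, -4.38, -3.74 and -2.21 in Hydroxyurea 1 to 4, against -4.04, -4.71, -3.07 and -4.77 in Control 1 to 4. Cldn1 was not ordered by Folr1: Control 1, the mouse of lowest Folr1, was above Hydroxyurea 1, Hydroxyurea 2, Control 2 and Control 4. Its slope was 0.29 ± 0.13 (adjusted p = 0.441), with a 95% interval of -0.02 to 0.60, and that of Cldn2 was 0.64 to 1.08. The difference between the 2 slopes was not tested. Cldn2 was not well above background on Hydroxyurea 1. With normexp its slope was 0.63 and still passed (limma adjusted p = 0.0223). Averaged over its probes it was 0.73 and did not pass (adjusted p = 0.228). Krt8 and Krt18, the paired keratins of simple epithelia, had 0.69 ± 0.09 and 0.58 ± 0.06. Krt8 was not well above background on Hydroxyurea 1, Control 1 and Control 2, and with normexp its slope was 0.27 and did not pass (adjusted p = 0.335).

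Of the matrix and surface genes 1 of 4 passed (0.301% of all genes). Sulf1, which trims sulfate groups from heparan sulfate, had 0.56 ± 0.08 (limma adjusted p = 0.0357). Col8a1, a collagen VIII chain, had 0.65 ± 0.11 (0.43 with normexp) and Tmem72, a membrane protein, 0.43 ± 0.07, and neither passed (adjusted p = 0.0752 and 0.0774), although both did with median centring (0.0432 and 0.0481). Ace, angiotensin-converting enzyme, which endothelium also carries, had -2.31, -1.59, -1.77 and -0.11 in Hydroxyurea 1 to 4, against -2.51, -2.39, -1.70 and -2.43 in Control 1 to 4. Control 3 lay near the middle Hydroxyurea mice, and the other 3 Control mice lay close together below them. The slope of Ace was 0.33 ± 0.07 (adjusted p = 0.195). The 12 endothelial marker genes had a median slope of 0.03 on Folr1 and 0 of 12 passed, with a summed signal of 37.0 to 43.2 in Hydroxyurea and 39.3 to 53.7 in Control mice.

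By size alone, 24 of 31 members had a slope on Folr1 of at least 0.5, where 0.355% of all genes did. The 9 with a slope of at least 0.8 were Kcne2, Slc4a5, Aqp1, F5, Cldn2, Ttr, Kcnj13, Slco1a5 and Wfdc2. The 7 below 0.5 were Kl, Tmem72, Enpp2, Ace, Cldn1, Msx1 and Car12. This sorting depends on how background is handled for dim probes. With normexp Slco1a5 (0.46), Col8a1 (0.43), Abca4 (0.39) and Krt8 (0.27) also lay below 0.5, and Cldn2 had 0.63. Pearson's r with Folr1 was at least 0.9 for 26 of 31 members (0.663% of all genes), and r with Ttr for 10 of 31 (0.229% of all genes). The r with Folr1 passed the exact permutation test with adjustment over 16585 genes for 10 of 31, where 0.103% of all genes passed.

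A straight line was put through the unlogged signals of the 8 mice pooled, with no group term. It was extended to estimate the signal that would remain in a mouse with no Folr1. Hydroxyurea 4, the mouse of highest Folr1, weighs most on that line. The remainder at 0 Folr1 was 80.9% ± 5.72 of the mean signal for Car12 (SE of the line, 8 mice), with 76.8% to 90.0% when any 1 mouse was left out. It was 66.3% ± 3.63 for Msx1, 53.9% ± 23.7 for Ttr, 53.1% ± 14.3 for Cldn1, 49.3% ± 4.36 for Enpp2 and 48.0% ± 3.60 for Ace. That of Ttr, a defining gene of the epithelium, was 1.84% without Hydroxyurea 4 and 48.8% to 57.4% without any other mouse. At the other end, Aqp1 had 1.70% ± 2.60, Kcne2 0.299% ± 9.17 and Slc4a5 -1.22% ± 4.26, none above its error. Between them lay Kl at 34% ± 2.65 and Otx2 at 21.4% ± 8.43. Without Hydroxyurea 4 these were 57.7% for Kl and 51.6% for Otx2, against 30.6% to 35.7% and 15.3% to 25.4% without any other mouse. The remainders of Msx1, Cldn1 and Ace were also highest without that mouse, at 85.9%, 77.9% and 70.3%. The remainder holds signal from any other cell and any background left in the processed signal, which these values do not separate.

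Between the treated and the untreated group no member passed the test. Limma called 0% of 16620 genes, and the lowest adjusted p of any gene was 0.387. Unadjusted p-values under 0.05 were found for 581 genes with higher (3.50%) and 1168 genes with lower (7.03%) values in Hydroxyurea mice. Of the members 0 of 32 passed, with adjusted p of 0.454 to 0.792, and 1 had an unadjusted p under 0.05. All 32 had a higher mean in Hydroxyurea mice, where 48.7% of all genes did, and the median log2 fold change was 1.19 against -0.0038 over all genes. Since the members vary together, these 32 directions are not 32 separate observations. In 0 of 32 members did all 4 Hydroxyurea mice lie above all 4 Control mice, while 2.38% of all genes showed that and 5.09% showed the opposite.

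The gap between the group means was about as large as the spread within them. The score averaged 0.57 ± 1.41 in Hydroxyurea mice and -0.57 ± 1.03 in Control mice (SD, n = 4 each), a difference of 1.14. That difference was 0.52 without Hydroxyurea 4, 0.75 without Control 1 and 0.13 without both. Without both, 23 of 32 members kept a higher mean in Hydroxyurea mice. It was 1.84 when only 19-week mice were compared, which leaves 2 Hydroxyurea mice.

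Ttr averaged 6.13 ± 1.66 in Hydroxyurea mice and 4.83 ± 1.69 in Control mice (SD, n = 4 each), and its 95% interval of the log2 fold change ran from -0.88 to 3.47. Slco1a5 had the largest log2 fold change, 1.98 ± 0.93 (SE; limma adjusted p = 0.50), and its interval ran from -0.13 to 4.09. Krt8 had 1.94 ± 0.80 (adjusted p = 0.454). Both are dim on the arrays named above, and with normexp Slco1a5 had 0.95 and Krt8 0.54, while Folr1 had the largest log2 fold change, 1.75 (1.86 without normexp). Car12 had the smallest, 0.21 ± 0.24 (adjusted p = 0.78), with an interval of -0.34 to 0.75. Intervals of this width leave room for no change and for a several-fold change in most members.

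Once mice were compared at equal Folr1, the median difference between the groups was -0.04 over 31 members, and 14 of 31 were above 0. Limma called 0% of 16619 genes and 0 of 31 members. Without adjustment, p was under 0.05 with a positive value for 3.68% and with a negative value for 6.79% of all genes, and for 2 of 31 members. Those 2 were Kcne2, at -0.84 ± 0.15 on the log2 scale with a 95% interval of -1.19 to -0.49 (limma adjusted p = 0.463), and F5. F5 had -0.62 ± 0.22 (adjusted p = 0.464), and Krt8 at the other end had 0.66 ± 0.35. At equal Ttr the median difference was 0.34 and 25 of 31 members were above 0, with 0 of 31 called (0% of all genes). There 3.12% of all genes had a positive and 6.67% a negative value at an unadjusted p under 0.05, and 0 of 31 members did. These fits share the mice of the plain comparison and are a second view of the same values.

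**Figure D4:**
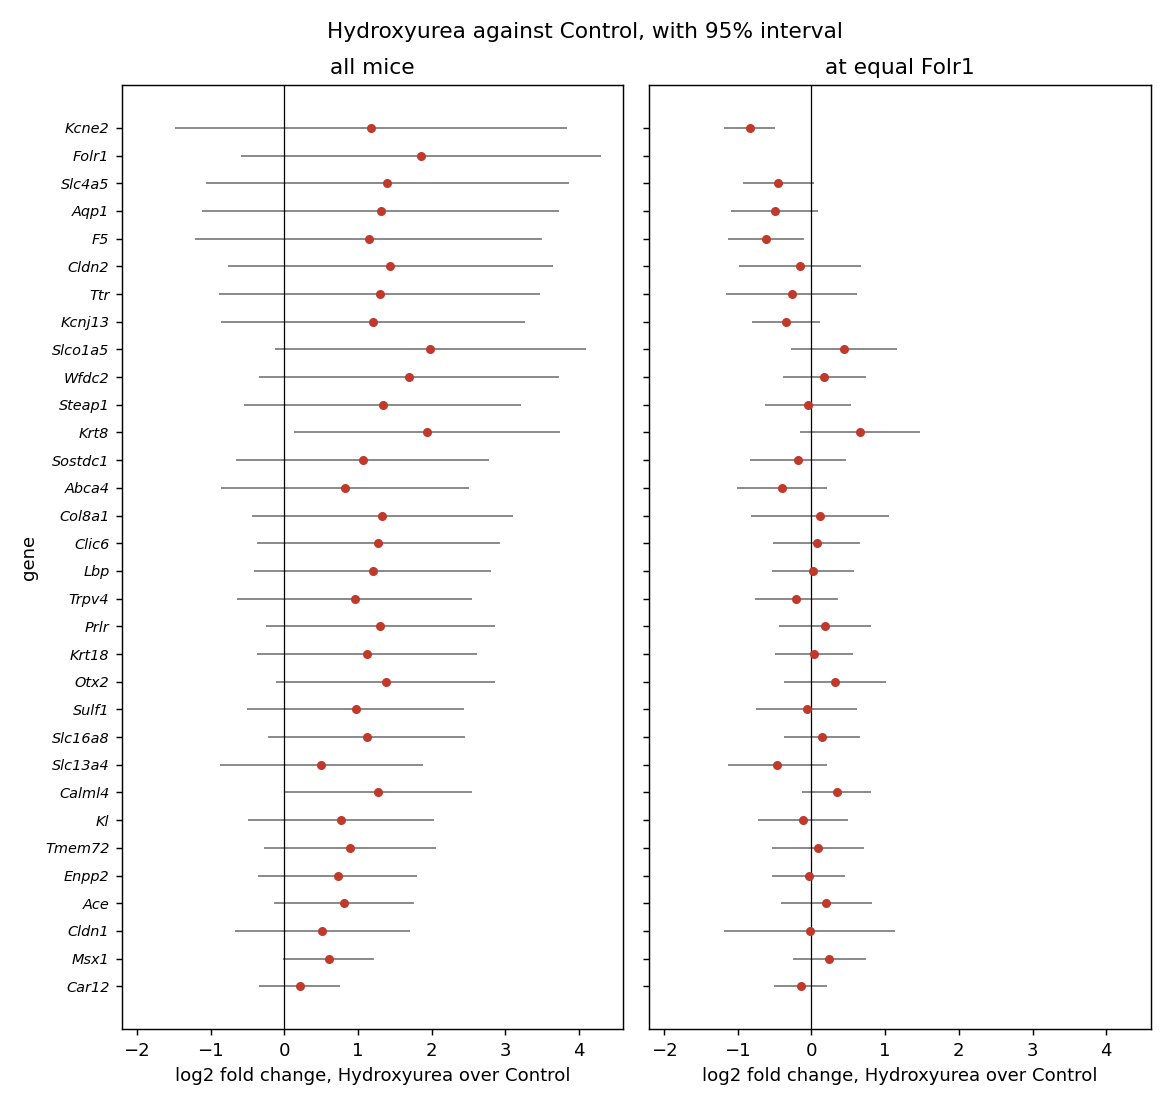
Log2 fold change of each gene, Hydroxyurea over Control, with the 95% interval of the limma fit, for all mice as measured (left) and at equal Folr1 (right). On the left every point lies above 0 and every interval but that of Krt8 spans 0; on the right the points lie on both sides of 0 and the intervals of Kcne2 and F5 lie below it.

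Of 31 further choroid plexus genes on the array, 4 passed the fit on Folr1, where 0.301% of all genes did. Those 4 slopes were positive, and 26 of 31 slopes were above 0 with a median of 0.14. Ecrg4, whose secreted product augurin is abundant in this epithelium, had 0.83 ± 0.04 (limma adjusted p = 0.000103). Lmx1a, a factor of the roof plate from which the plexus grows, had 0.74 ± 0.11 (adjusted p = 0.0392). Sema3b, a secreted semaphorin, had 0.48 ± 0.06 and Rdh5, a retinol dehydrogenase, 0.47 ± 0.06 (adjusted p = 0.0228 and 0.0285). The summed signal of the 31 genes was 261 to 339 in Hydroxyurea mice and 252 to 258 in Control mice.

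Markers of ependyma shared the highest and the lowest mouse with the members. The ependymal score, over 18 genes of the ciliated ventricle lining, was 0.49, -0.35, -0.34 and 1.14 in Hydroxyurea 1 to 4, against -1.26, -0.14, 0.53 and -0.07 in Control 1 to 4. Hydroxyurea 4 was highest and Control 1 lowest, but Hydroxyurea 1 was high for ependyma and low for choroid plexus. Of the 18 genes 17 had a slope on Folr1 above 0, with a median of 0.26, and 0 of 18 passed. The steepest of these slopes was 0.57 ± 0.18, inside the range of the members (0.19 to 1.08). The summed signal of the 18 genes was 8.40 to 25.2 in Hydroxyurea and 5.85 to 15.8 in Control mice. Of the 18, 16 were well above background on all arrays.

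The meningeal fibroblast score, over 12 genes, was 0.02, -0.21, -0.36 and 0.65 in Hydroxyurea 1 to 4, against -0.58, 0.24, 0.46 and -0.21 in Control 1 to 4, with a median slope of 0.18 and 0 of 12 past the test. The summed signal of those genes was 21.3 to 36.7 in Hydroxyurea and 13.6 to 34.4 in Control mice. Border macrophage genes, of which 5 of 6 were tested and 1 was not well above background on any array, had the same median slope of 0.18 and 0 passed. Their summed signal was 1.07 to 1.87 in Hydroxyurea and 0.975 to 1.91 in Control mice. The part of ependyma, meninges and their macrophages in the variation of the members was not tested. Astrocyte and hippocampal neuron markers were nearly level, with median slopes of 0.02 and -0.0094 and 0 of 8 past the test in each.

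**Figure D5:**
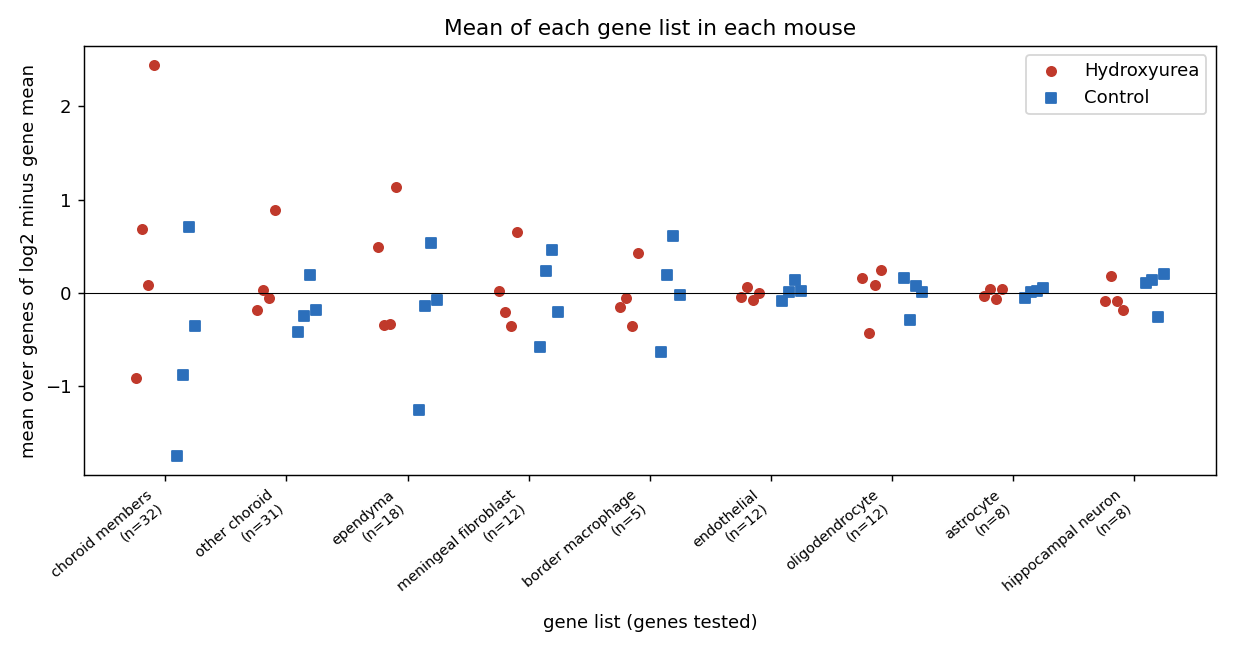
Mean over the genes of each marker list of the scaled log2 signal minus the gene's 8-mouse mean, 1 point per mouse (red circles Hydroxyurea, blue squares Control), with the number of genes tested under each list. The 32 choroid plexus genes spread from -1.75 to 2.44, ependymal genes from -1.26 to 1.14, and astrocyte and neuronal genes stay near 0.

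Outside the members, the 10 genes most like Ttr were taken by the smallest p in the fit on Ttr among genes with a slope of at least 0.5. They were Tmprss11a, Tex22, Tmem184a, Krt23, Ecrg4, Defb11, Slc28a3, Ceacam16, Wdr86 and Prr32, with slopes of 0.55 to 1.32 over 8 mice and adjusted p of 0.377 to 0.496, so none passed on Ttr. On Folr1, 9 of the 10 passed, all but Krt23 (limma adjusted p = 0.211), where 0.301% of all genes passed. Ttr and Folr1 put the mice in the same order, so for genes picked on Ttr the fit on Folr1 is not a separate test. Tmprss11a had -7.43, -3.56, -5.16 and -1.42 in Hydroxyurea 1 to 4, against -8.07, -6.28, -3.08 and -4.70 in Control 1 to 4, and was well above background on 5 of 8 arrays. Its order of mice followed that of Folr1 closely, with a slope of 1.24 ± 0.06 (adjusted p = 0.000103). Ceacam16 was well above background on 4 of 8 arrays, Krt23 on 5, Tex22 and Tmem184a on 6 and Slc28a3 on 7. The slopes of these genes and of Tmprss11a thus rest partly on values near background. Wdr86 was well above background on all 8 arrays and had a slope of 0.64 ± 0.07 (adjusted p = 0.00891).

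The promoters of the members were set beside their slopes because Otx2 is itself a member and its homeodomain is known to bind the word TAATCC. RefSeq promoter sequences (GRCm38.p6, 250 bases before the start to 50 after) were found for 25 of 32 members, with 34 promoters. The word, on either strand, lay in 3 of 34 (8.82%), against 2054 of 32851 promoters of all genes (6.25%). Its carriers were Abca4, Ace and Otx2, with slopes on Folr1 of 0.66, 0.33 and 0.56. The promoters of Kcne2, Slc4a5 and Aqp1, the members of steepest slope, held no such word in this window. The stretches shown, of 120 bases each, are those of the 3 carriers and then the 3 steepest members, in the direction of transcription, with TAATCC or its reverse complement GGATTA in capitals. They lie at chr3:122044340-122044459 (plus strand) for Abca4, chr11:105967828-105967947 (plus) for Ace, chr14:48665240-48665359 (minus) for Otx2, chr16:92292269-92292388 (plus) for Kcne2, chr6:83237255-83237374 (plus) for Slc4a5 and chr6:55336179-55336298 (plus) for Aqp1. Each ends at the base before the start, except that of Otx2, 1 of 4 promoters of that gene, which begins 250 bases before it.
Abca4: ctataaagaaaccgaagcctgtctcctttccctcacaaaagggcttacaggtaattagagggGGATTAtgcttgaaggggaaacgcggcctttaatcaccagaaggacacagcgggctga
Ace: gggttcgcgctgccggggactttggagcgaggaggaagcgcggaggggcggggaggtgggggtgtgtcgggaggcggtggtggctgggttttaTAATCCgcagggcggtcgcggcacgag
Otx2: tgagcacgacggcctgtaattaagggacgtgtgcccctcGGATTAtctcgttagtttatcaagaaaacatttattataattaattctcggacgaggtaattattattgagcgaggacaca
Kcne2: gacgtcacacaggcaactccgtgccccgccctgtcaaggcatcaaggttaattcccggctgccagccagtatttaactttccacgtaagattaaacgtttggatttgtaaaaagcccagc
Slc4a5: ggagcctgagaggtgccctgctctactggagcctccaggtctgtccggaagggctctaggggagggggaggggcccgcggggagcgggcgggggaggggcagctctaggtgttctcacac
Aqp1: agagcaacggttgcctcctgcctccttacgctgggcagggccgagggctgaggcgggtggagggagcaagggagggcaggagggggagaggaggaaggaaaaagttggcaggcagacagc
The word is a match of letters and not a measured binding site, and these coordinates belong to the promoter table, not to the arrays, whose headers name another build.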

How the data were processed

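Hippocampal RNA of 8 mice was read on 1-colour arrays. Per the file headers, Feature Extraction 12.0.3.1 gave the processed signal intensity of each spot that the authors deposited, background-subtracted and not normalized between arrays, with the build given as mm9. The deposited value table holds z scores of log signals, taken across the 62976 features of an array and matched here within 0.005, with column medians of -0.21 to -0.17. It was used as an alternative.

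Outlier spots were left out and spots of a probe averaged. Log2 intensity minus the array's 75th percentile was tested with limma 3.58.1 in R 4.3.3 (lmFit, eBayes with trend, two-sided, Benjamini-Hochberg over all genes, threshold 0.05), including the log2 slopes on Ttr or Folr1. Of 55681 probes, 28331 matched 1 gene of the RefSeq table (GRCm38.p6), and the brightest probe stood for each of 5754 genes with several. At least 4 of 8 arrays had to show a gene well above background, and at least 6 had to hold a value. Correlations used all 40320 orders of the mice. The smallest p that they give is 2.48e-05. With 4 arrays per group the number of arrays limits precision.

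Genes named beside the members are the 10 most like Ttr and, of each list, those that pass and up to 3 by smallest p. Some genes of these lists are not reported by name here. Members and lists were chosen with earlier results of these data known. On simulated data with 16586 genes, the treatment test found 85.1% of genes changed 2-fold, and the slope on Ttr found 94.0% of slopes of 0.5, with 8 and 5 unchanged genes called. The members vary more between mice than most genes, so these rates do not carry over to them. The z scaling, quantile and median scaling, normexp, filters, probe rules, age, replicate number, array weights and left-out mice were tried as alternatives. Whether mice shared a cage or litter is not known from the labels, so the p-values measure the spread between these samples.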

Additional observations from a re-analysis of the deposited data

Results flagged for a closer look

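Of 66 groups of 4 values examined for a sample far from the others, 2 were found, where chance gives about 1 in 20. Otx2 was 2.20 in Hydroxyurea 4, while the other Hydroxyurea mice lay between -0.48 and -0.04. Ace was -1.70 in Control 3, while the other Control mice lay between -2.51 and -2.39. Hydroxyurea 4 was the highest mouse for every member, and Control 3 the Control mouse of highest Folr1.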

How the results depend on the processing

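The treatment test called 0 genes and 0 members in every setting run. Fold changes of members gave 699 values over the settings, of which 12 were reversed. With 1 mouse left out, Slc13a4 ranged from -0.056 to 0.88 and Car12 from -0.023 to 0.38, both lowest without Hydroxyurea 4, and with array weights Car12 was -0.033. Without Hydroxyurea 4 and Control 1, a fit chosen after seeing the data, Aqp1 was -0.088, Kcnj13 -0.053, Kcne2 -0.50, Slc4a5 -0.081, F5 -0.38, Trpv4 -0.0047, Slc13a4 -0.44, Abca4 -0.19 and Car12 -0.17. At equal Ttr without the 2 mice farthest from its median, Krt8 was -0.15 and Folr1 -0.17.

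No slope was reversed among 768 values on Ttr and 708 on Folr1. The fit on Ttr called 0 to 10 genes and 0 to 7 members with 1 mouse left out, the most without Hydroxyurea 4. With Folr1 in place of Ttr it called 50 genes and 25 members, and 80 genes and 28 members with no group term. A slope on Ttr that differs between groups was called for 0 to 5 genes with 1 mouse left out, the most without Hydroxyurea 1. The fit on Folr1 called 12 to 55 genes and 8 to 21 members with 1 mouse left out, the fewest without Control 3. It called 14 genes and 9 members without Hydroxyurea 4 and Control 1, 20 genes and 13 members with age as a covariate, 16 members in 19-week mice, 80 genes with no group term and 33 genes without a variance trend. The cause of these differences was not tested. The fits with mice left out or of 19-week mice alone also hold fewer mice.

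With the replicate number as a block, the fit on Folr1 called 0 genes and 0 members. The deviations of same-numbered mice correlated at 0.053, 0.20, -0.21 and -0.058. The Control mouse most like Hydroxyurea 1 was Control 1, and that most like Hydroxyurea 2 was Control 2. For Hydroxyurea 3 and 4 it was Control 1 and Control 3. So few values cannot settle whether the numbers pair the mice.

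Signal over background limits Slco1a5, Cldn2, Col8a1, Krt8 and Abca4, each below the limit on 1 to 3 arrays. With normexp the slopes on Folr1 of Slco1a5, Krt8 and Abca4 fell to 0.46, 0.27 and 0.39 and lost the call. Normexp used the median signal in place of the mean signal that had been planned.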

Other observations

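Genes of thyroid hormone and retinol handling, the cargo of transthyretin, varied little with the choroid plexus genes. Of 16 tested, 0 passed on Folr1 or Ttr, and the median slope on Folr1 was 0.05. The closest was Slco1c1, the thyroxine transporter of brain capillaries and choroid plexus, with a slope of 0.19 ± 0.03 (limma adjusted p = 0.0633). Stra6, the receptor for retinol-binding protein, had 0.10 ± 0.03, and Rbp4, that binding protein, 0.11 ± 0.04.

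Markers of mural cells had a median slope on Folr1 of 0.05 and those of thalamus -0.03, with 0 of 8 and 0 of 6 past the test. The thalamic score was 0.78 in Hydroxyurea 3 and -0.31 to 0.25 in the other mice.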
